A study of Rattus norvegicus and Mus musculus with 74 samples.

Results

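Bivalent CpG island promoters of the rat cortex were defined on measured values: a region had to hold 1 to 3 CpG islands and exactly 1 promoter, and to carry a called interval of H3K4me3 and of H3K27me3 in all 3 control libraries of each mark. The rule found 1432 regions, which is 23.0% of the 6224 rat regions with 1 promoter and 1 to 3 islands and 1.97% of all 72824 rat regions. Signal of H3K4me3, H3K27me3, H3K9Ac and H3K9me3 was measured by ChIP-seq in frozen brain cortex of Sprague-Dawley rats, with 3 libraries per mark in each of 3 groups. The groups were rats given valproate (VPA) through prenatal injection and later treated with TAK-418, rats given VPA in the same way and treated with vehicle, and healthy controls treated with vehicle. Valproate is an antiseizure drug that inhibits histone deacetylases, and prenatal exposure to it is used as a model of neurodevelopmental disorder. TAK-418 is an inhibitor of LSD1, the demethylase that removes methyl groups from lysine 4 of histone H3. The labels state no age or dose, and do not say that each library is a different rat. A p-value below therefore speaks of the scatter among these libraries alone, part of which could be technical. The design asks how the exposure and the inhibitor moved the 4 marks.

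CpG islands attract the enzymes that place H3K4me3, the mark of promoters open to transcription. Many islands of developmental genes are also bound by Polycomb repressive complexes, which place H3K27me3, the mark of a silenced but recallable promoter. Islands that carry both were described in embryonic stem cells and are called bivalent. H3K9Ac marks active promoters, and H3K9me3 marks heterochromatin, imprinted alleles and silenced repeats. Cortex holds many cell types, so a region with both marks can have them on different nucleosomes, in different cells or on different alleles. In bulk tissue, fewer cells with a mark and less of the mark per cell cannot be told apart.

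RefSeq promoter sequences, matched by gene name, are shown for 7 members. Of those with an entry in the RefSeq promoter table, 3 leaned most toward H3K27me3 in controls and 3 most toward H3K4me3. The last is Insm2, which had the largest fall of H3K9Ac with TAK-418 among genes with a name. Each run covers 250 bases before to 50 after the gene start of the RefSeq annotation on build GRCr8, 5′ to 3′ on the strand of the gene, with every CpG in capitals. The signal regions are on build rn5, so these windows may not be the start that lies within the region.
Neurog1, a proneural transcription factor, chr17:8367846-8368145, plus strand: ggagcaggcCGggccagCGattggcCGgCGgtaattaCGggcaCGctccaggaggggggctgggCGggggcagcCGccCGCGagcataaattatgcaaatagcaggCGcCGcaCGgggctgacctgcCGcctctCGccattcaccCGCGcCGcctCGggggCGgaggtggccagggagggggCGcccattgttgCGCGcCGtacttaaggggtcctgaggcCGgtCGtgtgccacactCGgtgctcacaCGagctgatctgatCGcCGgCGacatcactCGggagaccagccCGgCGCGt
Sp9, a zinc finger factor of interneuron development, chr3:78554095-78554394, plus strand: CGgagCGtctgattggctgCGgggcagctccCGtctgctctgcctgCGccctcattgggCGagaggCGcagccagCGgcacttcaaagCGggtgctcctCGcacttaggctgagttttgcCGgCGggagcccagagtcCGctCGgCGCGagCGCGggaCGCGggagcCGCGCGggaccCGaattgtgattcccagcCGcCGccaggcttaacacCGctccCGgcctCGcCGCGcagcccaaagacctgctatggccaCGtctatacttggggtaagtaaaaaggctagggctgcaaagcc
Osr1, an odd-skipped zinc finger factor of kidney and limb, chr6:38097401-38097700, plus strand: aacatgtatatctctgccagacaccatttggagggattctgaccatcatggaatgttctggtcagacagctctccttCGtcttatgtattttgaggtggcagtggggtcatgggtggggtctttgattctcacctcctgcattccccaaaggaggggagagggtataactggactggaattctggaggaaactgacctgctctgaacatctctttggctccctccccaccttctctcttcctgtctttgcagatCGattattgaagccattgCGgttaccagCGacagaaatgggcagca
Epha7, an ephrin receptor of axon guidance, chr5:47771643-47771942, plus strand: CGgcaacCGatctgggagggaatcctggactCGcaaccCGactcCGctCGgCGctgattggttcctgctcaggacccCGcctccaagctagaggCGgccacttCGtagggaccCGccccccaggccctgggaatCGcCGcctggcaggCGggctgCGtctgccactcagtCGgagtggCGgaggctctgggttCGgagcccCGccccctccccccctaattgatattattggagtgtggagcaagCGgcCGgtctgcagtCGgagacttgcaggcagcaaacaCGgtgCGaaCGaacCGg
Flrt2, an adhesion and guidance protein, chr6:120509073-120509372, plus strand: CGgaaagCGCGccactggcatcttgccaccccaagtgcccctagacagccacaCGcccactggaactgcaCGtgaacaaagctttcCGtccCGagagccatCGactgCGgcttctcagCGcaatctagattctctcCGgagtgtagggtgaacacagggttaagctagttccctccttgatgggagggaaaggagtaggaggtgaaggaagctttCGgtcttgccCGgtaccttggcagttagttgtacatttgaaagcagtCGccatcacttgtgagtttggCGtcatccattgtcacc
Pim1, a serine/threonine kinase, chr20:7556246-7556545, plus strand: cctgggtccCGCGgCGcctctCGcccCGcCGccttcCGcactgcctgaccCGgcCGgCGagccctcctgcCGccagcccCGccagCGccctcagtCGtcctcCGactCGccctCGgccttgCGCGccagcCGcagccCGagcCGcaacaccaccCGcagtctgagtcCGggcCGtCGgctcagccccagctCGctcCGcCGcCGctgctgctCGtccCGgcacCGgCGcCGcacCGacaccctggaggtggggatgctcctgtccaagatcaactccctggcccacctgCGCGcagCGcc
Insm2, a zinc finger repressor of the neuroendocrine lineage, chr6:78708733-78709032, plus strand: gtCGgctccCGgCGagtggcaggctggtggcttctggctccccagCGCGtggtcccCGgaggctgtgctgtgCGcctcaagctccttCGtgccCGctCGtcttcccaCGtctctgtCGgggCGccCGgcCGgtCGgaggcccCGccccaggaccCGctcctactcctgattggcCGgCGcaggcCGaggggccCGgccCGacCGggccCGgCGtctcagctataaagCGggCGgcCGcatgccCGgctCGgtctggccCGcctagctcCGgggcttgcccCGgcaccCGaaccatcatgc
These 300-base windows held 35 CpGs for Neurog1, 32 for Sp9, 26 for Epha7, 15 for Flrt2, 39 for Pim1 and 35 for Insm2, against a median of 7 over all 27457 promoters of the table. The rule required 1 to 3 CpG islands in each region, so counts above this median say nothing particular to bivalent promoters. The Osr1 window was the exception, with 4 CpGs, and need not hold the CpG island that the rule required of its region. At least 1 CpG stood in 94.8% of all promoters, so presence alone says little. Of the 1426 nearest genes of the members, 1038 (72.8%) matched the table, below the 80% required for a comparison of base content between classes, so that comparison is void and is not given. Ngfr and Osr2 had no entry.

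The libraries were not alike. Sums of signal over all rat regions ranged from 226640 to 424201 for H3K4me3, 118660 to 248055 for H3K27me3, 163762 to 349291 for H3K9Ac and 138779 to 285037 for H3K9me3. H3K27me3 control 3 was the weakest and VPA TAK-418 1 the strongest of their mark. H3K9Ac VPA vehicle 3 (211103) lay below the other two vehicle libraries, H3K4me3 VPA TAK-418 2 (306564) below the other two of its group, and H3K9me3 control 1 had intervals in 7704 regions against 15861 and 15533 in controls 2 and 3. Values are the authors' mean signal per region in deposited units, whose scaling between libraries is not given, and read depth is unknown. Tests were therefore run on the signal as deposited, after subtracting each library's median (median centring) and after quantile normalization. Among tissue markers, the synaptic gene Snap25 had control H3K4me3 of 23.4 and H3K9Ac of 12.7, the most of the neuron markers. The other neuron markers had control H3K4me3 of 13.8 (Nrgn), 9.84 (Slc17a7), 5.57 (Gad1), 4.57 (Rbfox3) and 1.33 (Syt1). The epidermal Krt5 and intestinal and hepatic Apoa1 had 1.14 and 1.25, so Syt1 was close to them. The hepatic gene Alb was not low, with control H3K4me3 of 4.68.

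The members were wide. Their median length was 17799 bp (599 to 244399 bp), against 7799 bp for the 3250 island regions with H3K4me3 intervals in 3 and H3K27me3 intervals in 0 control libraries, called H3K4me3-only below. One island lay in 1102 of the members, 2 islands in 262 and 3 in 68. The table listed 1426 distinct nearest genes, and 337 members listed more than 1 gene. Members lay on all 21 chromosomes with an entry, from 25 to 152 each. The nearest gene start was within 2000 bp of the position that the table measures from in 604 members (42.2%) and in 65.9% of H3K4me3-only regions.

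The rule read the H3K4me3 and H3K27me3 calls of the controls, so levels of these marks are described without a test. In controls the median member had 8.62 ± 2.42 units of H3K4me3 and 5.68 ± 2.34 units of H3K27me3 (SD, n = 3 libraries), against 20.6 ± 3.58 and 1.73 ± 0.623 units in H3K4me3-only regions. The 199 regions with H3K27me3 in 3 and H3K4me3 in 0 control libraries had 1.44 ± 0.129 units of H3K4me3 and 8.67 ± 3.51 units of H3K27me3. The median member thus carried less of either mark than the regions that had only that one. The rule did not use acetylation, and control H3K9Ac over the members was 4.33 ± 0.50 units, between 8.11 ± 0.734 in H3K4me3-only regions and 1.67 ± 0.109 in H3K27me3-only regions. The 3 ranges of control libraries did not overlap, with 3.94 to 4.90 units in bivalent, 7.67 to 8.96 in H3K4me3-only and 1.57 to 1.79 in H3K27me3-only regions. With 3 values a class and regions of the same libraries, no test was made.

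**Figure D1:**
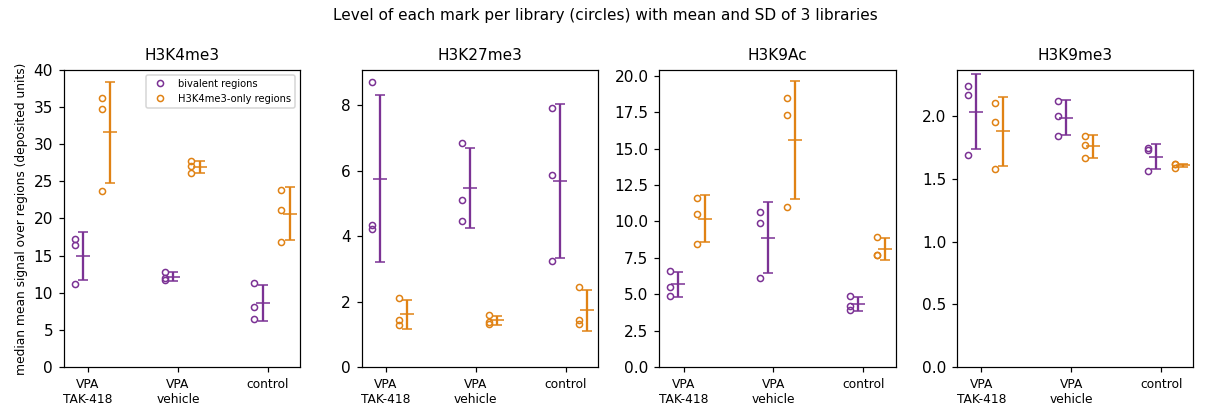
Median over regions of the mean signal (deposited units, y axis from 0) of each mark, for VPA TAK-418, VPA vehicle and control libraries (circles), with mean and SD of 3 libraries beside them; bivalent regions are purple and H3K4me3-only regions orange. Bivalent regions sit lower than H3K4me3-only regions for H3K4me3 and H3K9Ac and higher for H3K27me3 in every library. The rule set these classes apart by H3K27me3 calls in controls, while both had to carry H3K4me3 in all 3 controls.

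Both marks were also called outside the libraries that the rule read. H3K27me3 intervals were present in all 3 libraries in 1361 of 1432 members (95.04%) with VPA TAK-418 and in 1411 (98.5%) with VPA vehicle, and H3K4me3 intervals in 1430 and 1429. Over all 9 libraries of both marks, 1353 members (94.5%) had both. Of the 3250 H3K4me3-only regions, 4 had H3K27me3 in all 3 VPA TAK-418 libraries and 5 in all 3 VPA vehicle libraries. H3K9Ac was called in all 3 libraries in 1306 members with VPA TAK-418, 1405 with VPA vehicle and 1280 in controls. The median member's H3K27me3 stood among all 6224 island regions at percentile 84.4 ± 0.128 with VPA TAK-418, 84.5 ± 0.0643 with VPA vehicle and 84.5 ± 0.118 in controls (SD, n = 3). Its H3K4me3 stood at percentile 25.7 ± 0.762 with VPA TAK-418, 25.1 ± 0.610 with VPA vehicle and 24.0 ± 1.35 in controls, and its H3K9Ac at 22.8 ± 0.986 with VPA TAK-418, 25.3 ± 0.183 with VPA vehicle and 23.5 ± 0.656 in controls. For H3K9me3 the percentiles were 60.1 ± 6.26 with VPA TAK-418, 64.7 ± 1.70 with VPA vehicle and 54.6 ± 7.10 in controls. These ranks were not tested between the groups.

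The rule had an edge that ran through a continuum. A further 430 island regions had H3K27me3 in 2 of 3 control libraries, 668 had it in 1 of 3, and 45 lacked H3K4me3 in 1 of 3. Just inside, the named members with the least control H3K27me3 were Map1b (2.30 units), a microtubule-associated protein, Rcan1 (2.33), an inhibitor of calcineurin, and Zbtb16 (2.36), a zinc finger repressor. Just outside, with 2 of 3 libraries, the most H3K27me3 was at Zbtb7c (9.59 units), the cadherin Cdh22 (7.99) and Egfem1 (7.66). The values on both sides of the edge overlap, since presence was called in each library and not on the mean.

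Within the class, the balance of both marks varied more than either mark alone. The control ratio of H3K27me3 to H3K4me3 had a median of 0.675 and ran from 0.0867 to 9.19, and 470 members (32.8%) had more H3K27me3 than H3K4me3 signal. Antibodies differ in yield, so a ratio of 1 does not mean equal occupancy. The ratio also rose with the length of the region. From the shortest to the longest length quartile of members, its median was 0.517, 0.543, 0.683 and 1.01. The part of length in the order of the regions was not tested. At the Polycomb end stood Ngfr (9.19), which encodes the p75 neurotrophin receptor, Osr2 (7.70), a zinc finger factor of bone and palate, Neurog1 (7.23), Sp9 (6.31) and Osr1 (5.76). At the other end stood Epha7 (0.0867), Flrt2 (0.102), Pim1 (0.106), Prkar2b (0.112), a regulatory subunit of protein kinase A, and Irs2 (0.123), an insulin receptor substrate.

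Neurog1 lies in a region of chromosome 17 from 11300400 to 11339599 on rn5. Its H3K27me3 signal was 30.2, 13.5 and 15.0 in VPA TAK-418 libraries 1 to 3, 17.4, 24.8 and 14.4 in VPA vehicle and 18.9, 22.2 and 9.08 in controls, and its H3K4me3 signal stayed between 2.03 and 3.92 in all 9 libraries. Library 1 of VPA TAK-418 was the highest and control 3 the lowest, as over the whole mark, and the groups overlapped. Epha7 (chromosome 5, 48228800 to 48235999, within the gene) was the reverse. It had H3K4me3 of 89.995, 56.3 and 76.6 units with VPA TAK-418, 56.4, 60.2 and 67.4 with VPA vehicle and 24.1, 59.4 and 41.6 in controls. Its H3K27me3 ran from 2.16 to 5.04 units.

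High control H3K27me3 was found at Susd3 (30.8 ± 16.3 units), a sushi domain protein, Spag6l (28.6 ± 14.5), a protein of the sperm flagellum whose region the table also lists for the Polycomb gene Bmi1, Skor1 (27.8 ± 12.4), a co-repressor of Smad signalling, and Sp9 (24.8 ± 11.3) (SD, n = 3). The most control H3K4me3 among named genes was found at Epha7 (41.7 ± 17.7), the protocadherin Pcdh7 (41.0 ± 10.7), the stronger of both Pou3f3 regions (40.4 ± 12.8), a factor of upper-layer neurons, Maml3 (38.8 ± 11.5), a Notch co-activator, and Tmeff2 (37.6 ± 5.73). The least was at Chrdl2 (1.57), a BMP antagonist, Myh14 (1.57), a non-muscle myosin, and Zap70 (1.64), a kinase of T cells.

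**Figure D2:**
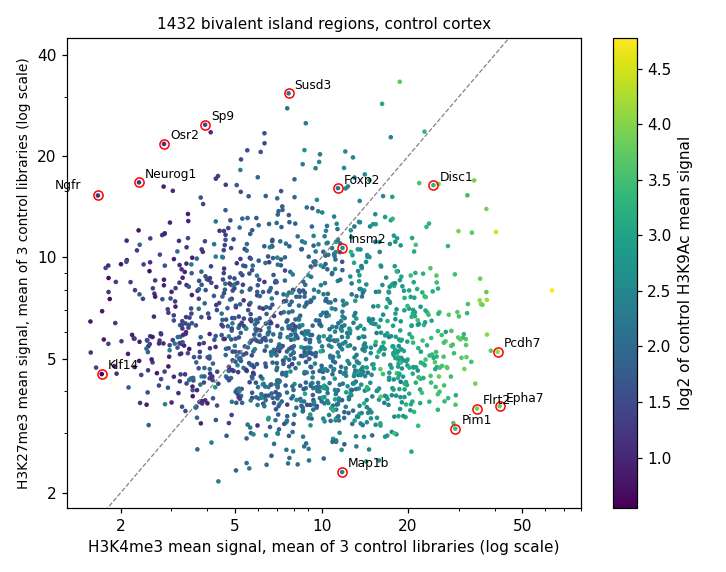
Control H3K4me3 (x axis) against control H3K27me3 (y axis) for the 1432 members, each the mean of 3 libraries in deposited units on log scales, coloured by log2 of control H3K9Ac; the dashed line marks equal signal and red rings mark genes named in the text. Acetylation runs from left to right with H3K4me3, and 470 points lie above the line.

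Across the members H3K9Ac followed H3K4me3 and not H3K27me3. Over the 1432 regions in controls, Spearman's rho was 0.878 (Pearson's r 0.886) between H3K4me3 and H3K9Ac, -0.0947 (r -0.0755) between H3K4me3 and H3K27me3, and -0.122 (r -0.0811) between H3K27me3 and H3K9Ac. These are descriptions across regions that share libraries and length, and regions are not replicates. Length entered both marks, with rho of -0.513 between length and H3K4me3 and -0.207 between length and H3K27me3. In the longest length quartile of members (33599 to 244399 bp) the median H3K4me3 was 5.35 units and in the shortest (599 to 10399 bp) 13.0 units, while the medians of the highest H3K4me3 signal inside the region ran the other way, 89.3 in the longest and 68.7 in the shortest.

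The named gene families show what kind of promoter was bivalent. Of 29 gene lists, 326 members (22.8%) had their nearest gene on at least 1, and the shares below stand against 23.0% of all 6224 island regions. They describe the rule's outcome and carry no test. Among genes of cell identity, 13 of 14 island regions of excitatory and layer identity genes were bivalent, 8 of 9 of interneuron identity, 12 of 14 of neural progenitors and 8 of 10 of immediate early genes. Gad1 and Gad2, which make GABA in interneurons, had control H3K27me3 of 15.2 ± 6.15 and 17.3 ± 7.51 units beside H3K4me3 of 5.57 ± 1.25 and 5.99 ± 1.44. Foxp2, a factor of deep-layer neurons, had 16.1 ± 8.01 units of H3K27me3 and 11.4 ± 3.39 of H3K4me3, and Bdnf, the activity-dependent neurotrophin, 8.31 ± 3.47 and 14.3 ± 2.39. The progenitor factors Neurog1 and Neurog2 carried 16.7 ± 6.81 and 15.7 ± 6.54 units of H3K27me3.

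Signalling and receptor lists gave the following counts. Bivalent were 13 of 17 island regions of neuropeptides and hormones, 17 of 25 of Wnt ligands, receptors and antagonists, 24 of 36 of FGF, TGF-beta and hedgehog ligands and antagonists, 46 of 73 of monoamine, acetylcholine and peptide receptors, and 21 of 36 of axon guidance genes. The ligand Bmp2 had 22.8 ± 13.4 units of H3K27me3 and 17.4 ± 10.1 of H3K4me3, and the Wnt receptor Fzd5 17.0 ± 7.50 and 14.7 ± 6.45. Slit2, a repulsive guidance ligand, had 13.9 ± 7.12 units of H3K27me3 and 37.5 ± 10.7 of H3K4me3. Among channels and adhesion genes, 23 of 41 potassium channel regions, 8 of 17 of sodium, calcium and HCN channels, 12 of 25 of cadherins and protocadherins, 13 of 31 of synaptic adhesion proteins and 8 of 21 of glutamate and GABA receptors were bivalent. The NMDA receptor genes Grin2c and Grin2a lay on opposite sides of the balance, Grin2c with 18.2 ± 8.84 units of H3K27me3 and 5.21 ± 1.33 of H3K4me3, Grin2a with 6.75 ± 3.03 and 27.7 ± 7.05.

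Transcription factor families split between the classes. Basic helix-loop-helix factors were bivalent in 21 of 34 island regions, GATA and zinc finger regulators in 22 of 42, and homeobox factors other than Hox in 26 of 62, of which another 19 were H3K27me3-only. Irx5, a homeobox factor of patterning, had 23.6 ± 9.85 units of H3K27me3 and 4.11 ± 1.78 of H3K4me3. Forkhead factors (4 of 22), Sox factors (2 of 5) and T-box factors (0 of 4, with 3 H3K27me3-only) gave few. The Hox list had 0 island regions with a single promoter. Of 18 ribosomal protein regions, 0 were bivalent and 14 were H3K4me3-only, and 0 of 9 regions of LSD1 complex and H3K4 enzyme genes were bivalent. Polycomb subunits gave 3 of 14 and solute carriers 39 of 128. Among markers of other cell types, 0 of 2 astrocyte, 0 of 2 microglia, 2 of 3 oligodendrocyte and 3 of 4 endothelial and choroid plexus regions were bivalent.

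**Figure D3:**
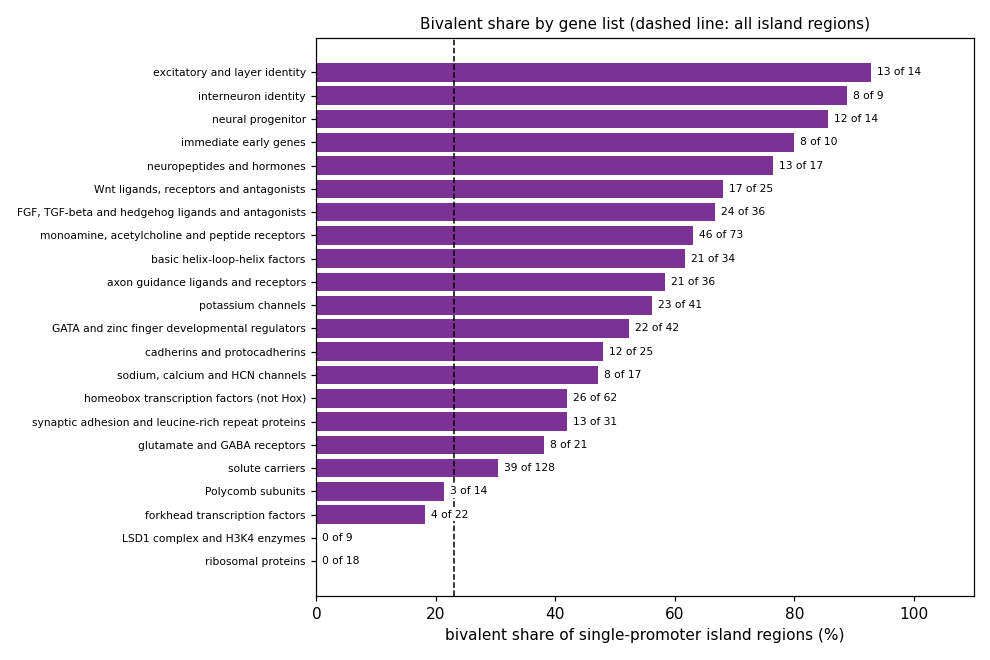
Share of the single-promoter island regions of each gene list that were bivalent (x axis, percent), for the lists with 9 or more such regions; the number of bivalent regions stands at each bar and the dashed line marks 23.0%, the share of all island regions. Neuronal identity lists reach 92.9%, and ribosomal proteins have 0 of 18.

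The same rule applied to mouse cortex gave 827 of 5987 single-promoter island regions. Of the rat member genes, 881 had such a region in mouse, and of the mouse member genes 582 had one in rat. The 471 genes in both sets were 53.5% of the 881 rat genes and 80.9% of the 582 mouse genes, and 3792 genes had island regions in both species. Of these 3792 genes, 23.2% were members in rat and 15.3% in mouse.

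Among the comparisons tested over these promoters, those of H3K9Ac gave the most calls. The median member had 5.52, 6.61 and 4.90 units in the VPA TAK-418 libraries, 9.91, 10.6 and 6.09 in VPA vehicle and 4.90, 3.94 and 4.16 in controls. Every VPA vehicle library lay above every control, whereas VPA vehicle 3 lay inside the range of VPA TAK-418. Of the 1432 members, 1416 had an interval in at least 3 of 9 libraries and entered limma, which tested all 17679 such rat regions together. In VPA vehicle against control, 1396 members rose and 0 fell, beside a rise in 90.8% of all tested regions, so the share called says little about bivalent promoters. The median log2 change, on log2(signal + 1), was 0.84 over the members and 0.78 over all tested regions.

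Among the members, the largest rises in VPA vehicle over control were those of Disc1 (log2 change 1.32, SE 0.26), a scaffold protein studied in psychiatric genetics, Epha7 (1.32, SE 0.26), Zbtb7b (1.29, SE 0.26), a zinc finger factor of T cell fate, Cdk6 (1.28, SE 0.26), a cell cycle kinase, and Insm2 (1.26, SE 0.25). Their adjusted p-values were 9.1e-05 for Disc1, 0.00013 for Epha7 and Zbtb7b, and 0.00015 for Cdk6 and Insm2. Disc1 had 31.1, 32.8 and 19.3 units with VPA vehicle, against 13.6, 8.68 and 8.99 in controls, so the groups did not overlap. Neurog1, from the Polycomb end of the balance, rose by 0.57 (SE 0.19, adjusted p = 0.0052), with 4.44, 4.34 and 2.67 units in VPA vehicle, against 2.41, 2.07 and 2.15 in controls.

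Once the shift common to all regions was removed, little of this rise was left. Median centring gave 261 members higher and 72 lower, beside 11.5% higher and 12.4% lower of all tested regions, with a median change of 0.07. After quantile normalization 0 members passed in VPA vehicle against control, beside 0.362% of all regions in either direction. An unadjusted p under 0.05 was found at 311 of 1416 members, beside 4499 of 17679 tested regions. The number of calls was 35 higher and 3 lower without VPA vehicle 3, and 11 higher and 2 lower without control 1. The median-centred calls depended on which library was left out. They came to 0 higher without VPA vehicle 1, 1 without VPA vehicle 2, 3 without control 2 and 4 without control 3. The higher calls came to 285 without control 1, 278 without VPA vehicle 3, and 256, 213 and 197 without VPA TAK-418 1, 2 or 3. The lower calls came to 0 without VPA vehicle 1, VPA vehicle 2 or control 2, 1 without control 3, 46 without VPA TAK-418 2 and 164 without VPA vehicle 3.

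With VPA TAK-418 set against VPA vehicle, a contrast that shares the vehicle libraries with the one above, H3K9Ac fell at 215 members as deposited and rose at 0, beside a fall in 9.56% of all tested regions. That is 15.2% of the tested members, and 602 of 3239 H3K4me3-only regions (18.6%) fell. The median log2 change was -0.53 over the members, -0.54 over H3K4me3-only regions and -0.41 over all tested regions. The number of calls depended on single libraries: it was 1408 without VPA vehicle 3, 1 without VPA vehicle 1, 2 without VPA vehicle 2, 0 without VPA TAK-418 1, 3 without VPA TAK-418 3, and 70, 29 and 21 without control 1, 2 or 3. The sign of the median change held in each fit without a VPA vehicle or VPA TAK-418 library, from -0.76 to -0.40. Leaving out a control cannot alter this change, since the controls enter the contrast only through the pooled spread. Without the filter on intervals the count was 0 and with only the 6 libraries compared 1, while the highest signal in place of the mean gave 1086. The genes below are named from the fit as deposited, and values by library are given for some of them. Insm2 kept its call in 13 of the other settings and lost it in 4. Epha7, Efna5, Zfpm2 and Eda each kept theirs in 11 and lost it in 6. For the other genes this was not counted.

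Among genes with a name, Insm2 had the largest fall. Its H3K9Ac signal was 5.23, 7.66 and 5.92 units in VPA TAK-418 libraries, 19.0, 14.5 and 12.7 in VPA vehicle and 7.97, 4.60 and 5.15 in controls. All VPA TAK-418 values lay below all VPA vehicle values, and within the range of the controls. The log2 change was -1.17 (SE 0.25, adjusted p = 0.0018). Its paralogue Insm1, a factor of neuronal progenitors, fell by 0.87 (adjusted p = 0.021). The table lists Insm2 together with Ralgapa1 in that region (chromosome 6, 85913000 to 85919799).

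Epha7 and its ligand Efna5 were both called lower. As deposited, 0% of the 1416 tested members had a change above 0. Epha7 had 15.1, 18.3 and 14.1 units with VPA TAK-418, 42.5, 41.4 and 26.3 with VPA vehicle and 18.6, 12.3 and 11.5 in controls, a log2 change of -1.14 (SE 0.26, adjusted p = 0.0039) against VPA vehicle. Efna5 (chromosome 9, 109893800 to 109903399) had 13.5, 18.0 and 11.9 units with VPA TAK-418, 35.1, 38.9 and 22.3 with VPA vehicle and 16.5, 11.5 and 14.2 in controls, a change of -1.08 (SE 0.26, adjusted p = 0.0066). In both genes VPA vehicle 3 was the lowest of its group and still above every VPA TAK-418 and control library. Zfpm2, a cofactor of GATA factors, fell by 1.12 (SE 0.25, adjusted p = 0.0039), and Eda, the ligand of skin appendage development, by 1.07 (SE 0.25, adjusted p = 0.0061).

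By list, H3K9Ac fell with VPA TAK-418 at 9 of 21 axon guidance members, at 7 of 24 FGF, TGF-beta and hedgehog members, at 7 of 38 tested solute carriers and at 3 of 4 forkhead members, beside 215 of 1416 members in all (15.2%) and 9.56% of all tested regions. It fell at 1 of 24 homeobox members, 1 of 21 basic helix-loop-helix members, 3 of 23 potassium channels and 5 of 46 monoamine, acetylcholine and peptide receptors. GATA and zinc finger regulators gave 3 of 21, Wnt genes 3 of 17, cadherins and protocadherins 3 of 12, synaptic adhesion proteins 1 of 13, and sodium, calcium and HCN channels 0 of 8, where all 8 had an unadjusted p under 0.05. The forkhead members that fell were Foxp2 (-0.96, adjusted p = 0.013), Foxo1 (-0.97, adjusted p = 0.013) and Foxq1 (-0.73, adjusted p = 0.044), while Foxd1 did not pass (-0.38, adjusted p = 0.095). Bmp2 fell by 0.90 (adjusted p = 0.019), Slit2 by 0.84 (adjusted p = 0.030) and Sox11, a factor of immature neurons, by 0.82 (adjusted p = 0.030). Of 8 interneuron identity members and 12 tested neuropeptides and hormones, 0 passed in limma, and 6 and 9 had an unadjusted p under 0.05. Over all 1416 tested members, 916 had an unadjusted p under 0.05, beside 6661 of 17679 tested regions. The list medians of the log2 change were -0.64 for axon guidance, -0.54 for FGF, TGF-beta and hedgehog, -0.84 for forkhead, -0.53 for interneuron identity and -0.51 for neuropeptides, beside -0.53 over all members. Gad1 had 4.13, 4.64 and 3.42 units with VPA TAK-418, 6.30, 7.06 and 4.14 with VPA vehicle and 3.64, 2.75 and 3.36 in controls (change against VPA vehicle -0.41, adjusted p = 0.18), and the first pair of groups overlapped.

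**Figure D4:**
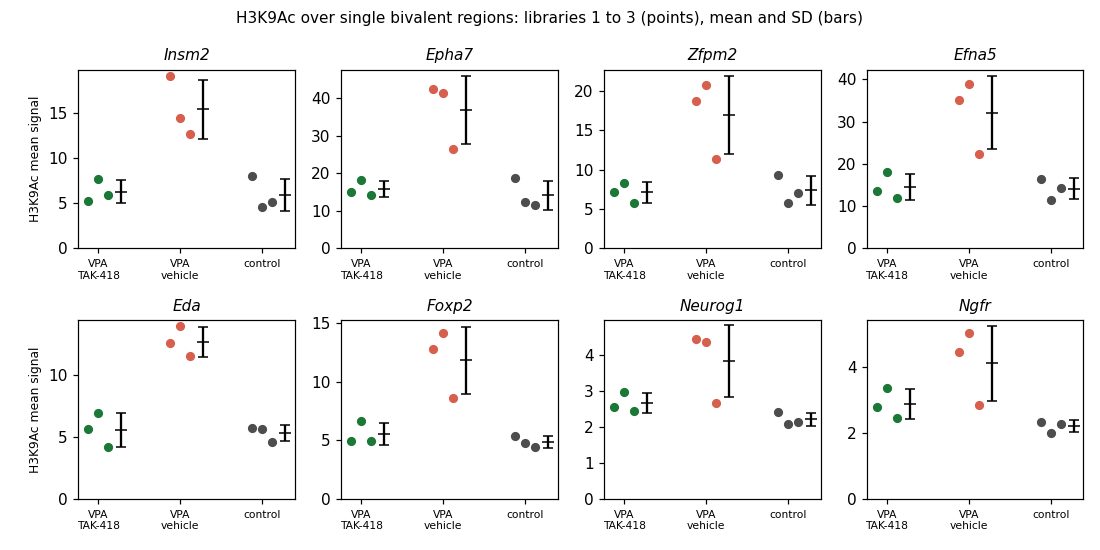
H3K9Ac mean signal (deposited units, y axis from 0) over 8 bivalent regions in the VPA TAK-418, VPA vehicle and control libraries (points, libraries 1 to 3 from left to right), with mean and SD of 3 beside them. Insm2, Epha7, Zfpm2, Efna5, Eda and Foxp2 show VPA vehicle above both other groups in every library, while at Neurog1 and Ngfr the third VPA vehicle library overlaps VPA TAK-418.

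Both rescalings also gave calls, most of them lower with TAK-418. Median centring gave 422 members lower (29.8%) and 7 higher, beside 17.8% lower and 13.7% higher of all tested regions. The lower count was 155 without VPA vehicle 1 and 128 without VPA TAK-418 1, and from 303 to 420 without any other library. The few higher calls came to 0 without VPA vehicle 1 or VPA TAK-418 1, 2 without VPA TAK-418 3, 3 without VPA vehicle 2 and 38 without VPA vehicle 3. Quantile normalization gave 60 lower (4.24%) and 0 higher, beside 1.3% lower and 2.69% higher of all tested regions. Without VPA vehicle 1, VPA vehicle 2 or VPA TAK-418 1 that count was 0, without VPA vehicle 3 it was 7, without control 3 31 and without VPA TAK-418 3 35. The median change of the members after quantile normalization was -0.14, from -0.16 to -0.11 when any 1 library was left out, and that of H3K4me3-only regions 0.01, with 54 of those lower and 52 higher. Whether the classes differ was not tested. Their control H3K9Ac levels differed, as given above, and the part of level in the change was not tested.

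Under both rescalings, 54 of 1416 members (3.81%) were called and all 54 were lower with VPA TAK-418; 41 of them were also called as deposited. By the same pair of criteria, 1.17% of the 17679 tested regions and 54 of 3239 H3K4me3-only regions (1.67%) were lower, and 2.20% of all regions and 0 members were higher. The difference between the classes was not tested. This pair of criteria was chosen after the values were seen, as were the genes Lef1, Gli3 and Insm1, so it supports nothing by itself. Among the 54 were Lef1 (-0.73 as deposited, adjusted p = 0.046), a nuclear factor of the Wnt pathway, Gli3 (-0.80, adjusted p = 0.032), one of the hedgehog pathway, and Foxp2. Grm4, a metabotropic glutamate receptor, changed by -0.82 (adjusted p = 0.029) and Pou3f1, a POU factor of neurons and Schwann cells, by -0.95 (adjusted p = 0.015).

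How the change depended on the chromatin balance turned on the scaling. The members were divided into 4 quartile groups of 358 by the control ratio of H3K27me3 to H3K4me3, which rests on other libraries than H3K9Ac. As deposited, H3K9Ac fell with TAK-418 at 118 members of the quartile richest in H3K4me3, then at 55, 26 and 16, and the median log2 changes were -0.66, -0.55, -0.51 and -0.43. Median centring kept that order, with 214, 114, 63 and 31 lower and medians of -0.26, -0.15, -0.11 and -0.04. Quantile normalization reversed the medians, at -0.11, -0.14, -0.16 and -0.16, with 20, 14, 15 and 11 lower. In VPA vehicle against control, which shares the vehicle libraries, the medians were 0.94, 0.87, 0.80 and 0.73 as deposited and 0.06, 0.07, 0.08 and 0.09 after quantile normalization. The quartiles also differed in level, with median control H3K9Ac of 7.49, 4.78, 3.78 and 2.81 units. Their median lengths were 12799, 17999, 18199 and 27099 bp. The parts of level and length in the order were not tested.

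**Figure D5:**
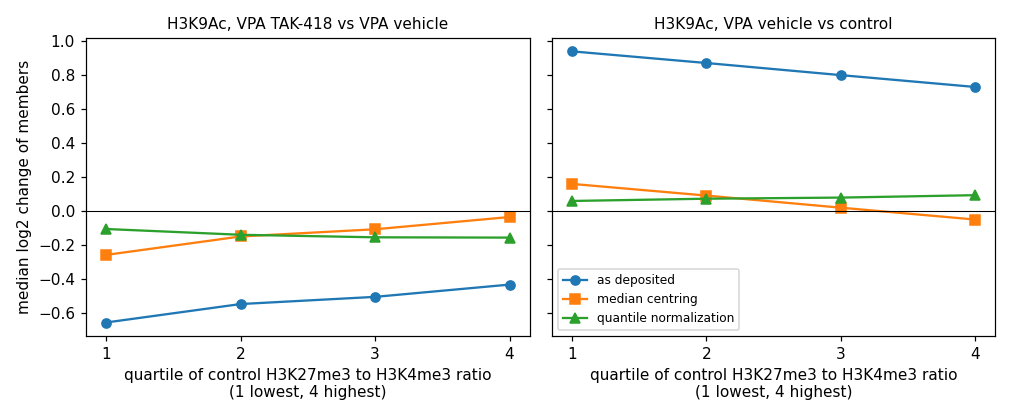
Median log2 change of H3K9Ac (y axis) over the tested members in each quartile of the control H3K27me3 to H3K4me3 ratio (x axis), for VPA TAK-418 against VPA vehicle (left) and VPA vehicle against control (right), under 3 scalings. As deposited and after median centring the change is largest in quartile 1, at -0.66 and -0.26 on the left, while after quantile normalization it is -0.11 there and -0.16 in quartile 4.

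In VPA TAK-418 against control, limma called 0 members for H3K9Ac, beside 0% of all tested regions. An unadjusted p under 0.05 was found at 56 of 1416 members, beside 3387 of 17679 tested regions. The median change was 0.30 over the members and 0.37 over all tested regions as deposited, and -0.08 over the members after median centring. Leaving out VPA vehicle 3, which enters only through the pooled spread, brought the count to 547, all higher. The smallest p-values were those of Znrf4, a ubiquitin ligase, Dach2, a nuclear cofactor of eye and muscle development, and Susd3. Znrf4 had 10.6, 13.7 and 9.63 units with VPA TAK-418, against 8.19, 5.88 and 6.16 in controls, with no overlap (change 0.67, SE 0.25, adjusted p = 0.24).

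H3K4me3 over the members was 17.2, 11.2 and 16.4 units in the VPA TAK-418 libraries, 11.7, 12.0 and 12.8 in VPA vehicle and 6.48, 11.2 and 8.13 in controls, as medians over the 1432 regions. VPA TAK-418 2 lay below all VPA vehicle libraries and the other two above them. In VPA TAK-418 against VPA vehicle, 1 member rose and 0 fell of 1432, beside a rise in 0.224% of the 14296 tested regions. The median change was 0.24 over the members and 0.20 over all tested regions. An unadjusted p under 0.05 was found at 156 of 1432 members, beside 1083 of 14296 tested regions. The median over the members was 0.13 without VPA TAK-418 1 and 0.41 without VPA TAK-418 2. In these fits 40 and 624 members had an unadjusted p under 0.05, beside 578 and 5237 of all tested regions. The member that rose was Slc5a8 (chromosome 7, 29532400 to 29539999), a transporter of monocarboxylates. It had 14.5, 7.49 and 12.1 units with VPA TAK-418, 6.04, 5.66 and 5.69 with VPA vehicle and 4.38, 6.07 and 5.21 in controls (change 0.82, SE 0.21, adjusted p = 0.047). All VPA TAK-418 libraries lay above all others. The count was 22 without VPA TAK-418 2, 6 without control 2, 3 without control 1 and 0 without any other library, and 0 after either rescaling. Next by adjusted p came Znrf4, with 25.6, 17.8 and 26.1 units in VPA TAK-418, 10.8, 12.9 and 13.2 in VPA vehicle and 6.31, 11.2 and 8.60 in controls (change 0.84, adjusted p = 0.057). It is named after its values were seen.

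Against control, H3K4me3 and H3K27me3 cannot be tested without circularity, since the control libraries chose the members. The median log2 difference of H3K4me3 was 0.73 for VPA TAK-418 and 0.48 for VPA vehicle over the members, and 0.58 and 0.37 over all tested regions. Over the members, the H3K4me3 value for VPA vehicle was 0.32 without control 1, 0.67 without control 2 and 0.47 without control 3. For VPA TAK-418 it was 0.56 without control 1, 0.91 without control 2 and 0.71 without control 3. The median log2 difference of H3K27me3 was 0.04 for VPA TAK-418 and 0.03 for VPA vehicle over the members. Over all tested regions it was 0.15 for VPA TAK-418 and 0.05 for VPA vehicle. Over the members it was -0.25 for VPA TAK-418 and -0.27 for VPA vehicle without control 3, and 0.28 for VPA TAK-418 and 0.26 for VPA vehicle without control 2. For VPA TAK-418 alone it was -0.25 without VPA TAK-418 1 and 0.19 without VPA TAK-418 2, and for VPA vehicle alone -0.12 without VPA vehicle 2.

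H3K27me3 over the members was 8.70, 4.22 and 4.33 units in VPA TAK-418 libraries, 5.10, 6.84 and 4.46 in VPA vehicle and 5.88, 7.92 and 3.25 in controls, as medians over regions, and the 3 groups overlapped. Between VPA TAK-418 and VPA vehicle, limma called 0 of 1432 members, beside 0% of the 15480 tested regions, and 0 members had an unadjusted p under 0.05. After median centring and quantile normalization 0 were called too. An unadjusted p under 0.05 was then found at 140 and 235 of 1432 members, beside 526 and 903 of all 15480 regions. The median change was 0.02 as deposited, beside 0.11 over all regions, and -0.10 after median centring, where 10.7% of members were above 0. As deposited it was -0.27 without VPA TAK-418 1, 0.17 without VPA TAK-418 2 and 0.16 without VPA TAK-418 3. Without VPA vehicle 1, 2 or 3 it was -0.01, 0.17 and -0.09, so its sign depended on single libraries. Among named genes the smallest p-values were at Stk17b, an apoptosis-related kinase, Basp1, a growth cone protein, and Pcdh19, a protocadherin. Stk17b had 4.24, 2.48 and 3.33 units with VPA TAK-418, 5.22, 7.18 and 5.57 with VPA vehicle and 5.36, 9.83 and 3.59 in controls (change against VPA vehicle -0.69, SE 0.39, adjusted p = 1). Its VPA TAK-418 and VPA vehicle libraries did not overlap.

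H3K9me3 intervals were called in 3 or more of the 9 libraries in 290 members (20.3%), in 139 of 3250 H3K4me3-only regions (4.28%) and in 69 of 199 H3K27me3-only regions (34.7%). These classes also differed in length, with medians of 17799, 7799 and 17599 bp. Across the members, control H3K9me3 and length had a rho of 0.318. The part of length in these shares was not tested. An interval was called in 0 of the 9 libraries in 982 members, in all 3 VPA TAK-418 libraries in 150, in all 3 VPA vehicle libraries in 210 and in all 3 controls in 67. Counts in controls are limited by library 1, where 73 members had an interval against 282 and 261 in libraries 2 and 3. Over all 1432 members the median signal was 2.03 ± 0.298 units with VPA TAK-418, 1.99 ± 0.140 with VPA vehicle and 1.68 ± 0.0974 in controls (SD, n = 3). Across the members, H3K9me3 and H3K27me3 had a rho of 0.233 in controls (r 0.248).

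A few members combined strong H3K9me3 with the other marks, and 55 had intervals of all 4 marks in all libraries. The most control H3K9me3 was at Ccdc177 (13.9 ± 9.47 units), Klf14 (6.36 ± 2.37), Plagl1 (6.08 ± 3.35), Zdbf2 (5.89 ± 1.18) and Rin3 (3.46 ± 0.833), a Rab5 exchange factor. Klf14, Plagl1 and Zdbf2 are imprinted genes in mouse, where the alleles of a promoter or its control region can carry opposite marks. Zdbf2 (chromosome 9, 69846600 to 69873399) had control H3K4me3 of 5.51 units, H3K27me3 of 20.8 and H3K9me3 of 4.57, 6.27 and 6.84. At Ccdc177, H3K9me3 was 10.6, 6.93 and 6.85 units with VPA TAK-418, 17.5, 10.5 and 11.8 with VPA vehicle and 3.28, 21.5 and 16.8 in controls, so that control 1 alone was low. At Plagl1 it was 5.07, 4.51 and 3.50 with VPA TAK-418, 9.40, 5.77 and 5.78 with VPA vehicle and 2.22, 8.16 and 7.88 in controls, again with control 1 alone low.

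Only 290 of the 1432 members had H3K9me3 in at least 3 libraries and entered the test, among 26084 regions of that mark. Those 290, like all the tested regions, passed in part through the group where they were high. H3K9me3 intervals were called in 7704, 15861 and 15533 regions in controls and in 24812, 28518 and 23359 in VPA vehicle. The counts, the shares of all tested regions and the genes named below are therefore no support. In VPA vehicle against control, 22 rose and 0 fell, beside a rise in 56.2% of all tested regions, with median changes of 0.29 and 0.50. VPA TAK-418 against control gave 9 that rose and 0 that fell, beside 39.5%, with medians of 0.26 and 0.48. Between VPA TAK-418 and VPA vehicle 0 passed, beside 0%, and 0 members had an unadjusted p under 0.05. Without the filter on intervals, over all 1432 members, the counts against control were 0 for VPA vehicle and 1 for VPA TAK-418, and after either rescaling they were 0.

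The H3K9me3 calls changed with single libraries. For VPA vehicle against control the count was 190 without VPA TAK-418 1, 14 without VPA TAK-418 2, 8 without VPA vehicle 3 and 0 without VPA vehicle 1 or 2 or without any 1 control. For VPA TAK-418 against control it was 87 without VPA TAK-418 3, 5 without VPA TAK-418 2, 2 without VPA vehicle 3 and 0 without VPA TAK-418 1, VPA vehicle 1 or any 1 control. The largest rise in both comparisons was at Ggta1p, the pseudogene of an enzyme of glycan synthesis in the name given by the table. It had 4.96, 3.50 and 3.12 units with VPA TAK-418, 3.58, 4.82 and 3.71 with VPA vehicle and 1.64, 2.40 and 2.44 in controls, with neither exposed group overlapping the controls. The log2 change from control was 0.61 (SE 0.22, adjusted p = 0.034) for VPA TAK-418 and 0.67 (SE 0.22, adjusted p = 0.024) for VPA vehicle. Acadl, an enzyme of fatty acid oxidation, changed by 0.55 (adjusted p = 0.047) with VPA TAK-418 and 0.53 (adjusted p = 0.045) with VPA vehicle.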

How the data were processed

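BWA 0.7.12 and build rn5 are named in the submitters' processing notes. How libraries were scaled, and which peak caller was used, is not given in the sources used here. Per the file headers, the deposited values are signal over merged regions, as a mean and a maximum per library, with a mark for the presence of an interval. The 36 rat ChIP libraries were matched to samples by name, and 0 library columns stayed unmatched. Read depth is unknown, so no counting interval was computed.

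For each mark, limma 3.58.1 (R 4.3.3, trend and robust prior) was fitted to log2(mean signal + 1) of all rat regions with an interval in at least 3 of 9 libraries, all 3 groups in 1 model, with Benjamini-Hochberg adjustment at 0.05. The fit was also run on simulated data, with noise drawn separately for each region and the mean deviation of each library removed. Shifts common to a library were thus absent from the simulation, so it is no support for the counts. The members, gene lists and rules were chosen with earlier results of these data known. Genes were named by rule: per comparison up to 5 calls in each direction with the largest change (or the 3 smallest p-values where 0 passed), the 5 highest and lowest levels, and up to 4 genes per list; gene models without a name were passed over. Alternatives were other scalings, no filter, a pseudocount of 0.5, the highest signal, a plain prior, 6 libraries and leaving out each library. Promoter sequences are from RefSeq (GRCr8); rn5 sequence was not used here. One gene that the naming rule selects is not reported here.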

Additional observations from a re-analysis of the deposited data

How the results depend on the processing

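The signal scaling is unknown, the regions are wide and each group has 3 libraries, which limits every count. The number of members was 1908 with 2 of 3 control libraries and 1353 with all 9 libraries of both marks. Median centring gave, for H3K9Ac, 333 calls in VPA vehicle against control and 429 in VPA TAK-418 against VPA vehicle, and quantile normalization 0 and 60. Both gave 0 for H3K9me3 against control and for H3K4me3. For H3K9Ac in VPA TAK-418 against VPA vehicle, the count was 0 with no interval filter, 1086 with the highest signal, 534 without trend and robust prior, and 1 with only the 6 libraries compared; the last setting gave 407 for VPA TAK-418 against control. For H3K9me3 in VPA vehicle against control it was 0 with no filter, 47 with the highest signal, 9 without trend and robust prior and 160 with 6 libraries, and in VPA TAK-418 against control 1, 18, 2 and 0. For H3K4me3 it was 0 with no filter, a pseudocount of 0.5, the highest signal and the plain prior, and 2 with 6 libraries. The cause of these changes was not tested.

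Same-numbered libraries had correlations from -0.51 to 0.27 in their deviations from the group mean, and differently numbered ones from -0.58 to 0.59. Deviations from a mean of 3 libraries depend on each other, so these values cannot show whether the numbers pair libraries. With the replicate block, calls for H3K9Ac in VPA TAK-418 against VPA vehicle numbered 877, and for H3K9me3 against control and for H3K4me3 they were 0. Leaving out 1 library gave 1163 to 1415 calls for H3K9Ac in VPA vehicle against control, 0 to 1408 in VPA TAK-418 against VPA vehicle and 0 to 547 in VPA TAK-418 against control. It gave 0 to 190 and 0 to 87 for H3K9me3 in VPA vehicle and VPA TAK-418 against control, and 0 to 22 for H3K4me3. For H3K27me3 and H3K9me3 in VPA TAK-418 against VPA vehicle it gave 0 throughout. Leaving out a library after rescaling was added after seeing the data. In VPA TAK-418 against VPA vehicle it gave 0 to 38 higher and 128 to 420 lower calls after median centring, and 0 higher and 0 to 81 lower after quantile normalization. In VPA vehicle against control it gave 0 to 285 higher and 0 to 164 lower after median centring, and 0 to 35 higher and 0 to 3 lower after quantile normalization. Of the named genes, 3 changed sign: H3K9me3 at Acadl was -0.0018 in VPA vehicle against control after quantile normalization, and in VPA TAK-418 against control after median centring Ccne1 was -0.060 and Slc22a3 -0.071.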
